A study of Mus musculus with 6 samples.

Results

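The genes described here are 10 genes of the endothelium, the cell layer that lines blood vessels, in the dorsal pancreas of mouse embryos at E13.5. They are the growth factor receptor genes Kdr, Flt1, Tek and Tie1, the junction genes Cdh5, Pecam1, Esam and Cldn5, the surface mucin gene Emcn and the transcription factor gene Sox17. They were taken by name: all 10 symbols were found among the 24389 Ensembl gene identifiers listed for each library, and each of the 10 averaged 1 or more across libraries, which made them part of the 13911 genes tested. RNA was sequenced from 3 libraries of Bicaudal C1 knockout (KO) embryos and 3 libraries of wild-type (WT) embryos, all on a mixed C57BL/6 and ICR background. Bicaudal C1, encoded by Bicc1, is an RNA-binding protein. The labels do not say how the knockout allele was made, nor whether a library came from 1 embryo or from a pool, so p-values measure the spread between these libraries, which may in part be technical.

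Endothelial cells receive growth signals through receptor tyrosine kinases. VEGF proteins bind VEGFR2 (Kdr) and VEGFR1 (Flt1), and angiopoietins bind TIE2 (Tek), which works together with the related TIE1 (Tie1). The cells are held together by VE-cadherin (Cdh5), PECAM-1 (Pecam1), ESAM (Esam) and claudin 5 (Cldn5). In the embryonic pancreas, vessels run through the mesenchyme around the epithelial buds.

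The values are a signal per gene whose unit is not stated in the sources used here. They look like a read density per gene, so genes are compared between libraries and not with each other. They summed to between 674295 and 716255 per library, and the depth is unknown. Bicc1, the targeted gene, lay between 3.96 and 4.91 in the KO group and between 18.2 and 19.7 in the WT group. The pancreatic factor gene Pdx1 lay between 9.57 and 13.49 in all 6 libraries. The first principal component, computed without the 10 genes, held 57.3% of the variance and set KO 1, KO 2 and WT 3 apart from KO 3, WT 1 and WT 2. Spearman's rho across genes, which are not independent, between GC content and deviation from the gene's mean was 0.50, 0.61 and 0.41 in the first 3 of these and -0.19, -0.56 and -0.66 in the others. Differences are therefore also given within each of these sets of 3 libraries and after a correction for GC content.

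Among the receptors for VEGF, Kdr carries most of the growth signal into the endothelial cell. Libraries KO 1, 2 and 3 gave values of 9.73, 11.2 and 13.6 and WT 1, 2 and 3 gave 9.67, 10.4 and 9.58, the order used for all genes below. KO 3 was high and KO 1 lay within the WT range, so the groups overlapped. The KO mean was 11.5 ± 1.94 and the WT mean 9.90 ± 0.477 (SD of 3 libraries). The log2 change of (value + 1) was 0.19 (95% interval -0.084 to 0.46), and limma, run over all 13911 genes, gave Kdr an adjusted p of 0.50, so it did not pass. Leaving out KO 3 took the change of Kdr to 0.070, and leaving out KO 1 took it to 0.29.

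Flt1, which binds VEGF tightly and can hold it away from Kdr, was 2.60, 3.00 and 3.33 for KO and 2.49, 2.62 and 2.41 for WT. KO 1 lay just below the highest WT library, so these groups overlapped as well. The log2 change of 0.18 (95% interval -0.036 to 0.39) was given an adjusted p of 0.48 by limma. Flt1 and Kdr varied nearly in step over the libraries. The ratio of Flt1 to Kdr within a library was 0.267, 0.269 and 0.245 in KO and 0.258, 0.251 and 0.252 in WT, with KO 3 lowest and the other KO libraries highest.

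The receptors Tek and Tie1 differed in pattern from each other. Tek was 6.31, 5.73 and 8.63 in KO and 5.85, 6.65 and 6.18 in WT. KO 3 stood above all other libraries and KO 2 below them. The log2 change was 0.11 (95% interval -0.21 to 0.43; limma adjusted p 0.72), and without KO 3 it was -0.042. Tie1 was 6.25, 6.44 and 5.64 in KO and 3.85, 4.35 and 5.60 in WT. Every KO library exceeded every WT library in Tie1, by a narrow gap between KO 3 and WT 3 that closed when libraries were scaled by median ratios or upper quartiles. The KO mean was 6.11 ± 0.422 and the WT mean 4.60 ± 0.905 (SD of 3 libraries). The log2 change of 0.35 (95% interval 0.069 to 0.64) did not pass limma, at an adjusted p of 0.47. The ratio of Tie1 to Tek was 0.991, 1.12 and 0.653 in KO and 0.658, 0.654 and 0.906 in WT. KO 1, KO 2 and WT 3 had the high ratios, the same libraries that the first component set apart. Among these, both KO ratios were above that of WT 3, while KO 3 lay just below WT 1 and WT 2. After the correction for GC content the log2 difference between Tie1 and Tek was 0.026 larger in KO than in WT, against 0.24 before it.

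The junction genes showed the most even separation of the groups. VE-cadherin joins endothelial cells at adherens junctions and is made by few other cells. Its gene Cdh5 was 21.3, 22.3 and 23.8 in KO and 17.4, 18.1 and 17.8 in WT. All KO libraries lay above all WT libraries, with WT values close together. The KO mean was 126% of the WT mean. The log2 change was 0.32 (SE 0.069, 95% interval 0.16 to 0.48), with the lowest p of the 10 genes, 0.0019 before and 0.47 after Benjamini-Hochberg adjustment over all genes in limma. It was 0.28 for KO 1 and KO 2 against WT 3, 0.40 for KO 3 against WT 1 and WT 2, and 0.24 after GC correction.

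Pecam1, whose product lines the contacts between endothelial cells and is also found on platelets and leukocytes, was 40.8, 43.4 and 54.1 in KO and 35.7, 34.9 and 36.8 in WT. The groups did not overlap, and KO 3 was far above the rest. Its log2 change was 0.35 (95% interval 0.096 to 0.60; limma adjusted p 0.47), or 0.23 without KO 3.

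Esam, an immunoglobulin-type adhesion gene of endothelial tight junctions and platelets, was 6.79, 7.71 and 7.57 in KO and 5.75, 4.69 and 6.65 in WT. The groups did not overlap, with a small gap between KO 1 and WT 3. The log2 change was 0.33 (95% interval 0.055 to 0.60; limma adjusted p 0.47). Cldn5, the main claudin of endothelial tight junctions, was 6.51, 5.66 and 6.31 in KO and 4.52, 4.49 and 5.28 in WT. These groups did not overlap either. The log2 change of Cldn5 was 0.31 (95% interval 0.10 to 0.52; limma adjusted p 0.47).

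Emcn encodes endomucin, a sialomucin on the surface of capillary and venous endothelium. It was the only member with a lower mean in KO, a direction that turned after GC correction (log2 change 0.012). Its value was 3.09, 3.34 and 4.29 in KO and 3.74, 3.71 and 3.97 in WT, so KO 1 and KO 2 lay below the WT libraries and KO 3 above them. The log2 change was -0.079 (95% interval -0.33 to 0.17; limma adjusted p 0.75). It was -0.19 without KO 3 and -0.0032 without KO 1.

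Sox17, a SOXF transcription factor gene of arterial endothelium that is also active in endoderm, was near the limit of the test. It was 0.989, 1.05 and 1.24 in KO and 0.962, 0.962 and 0.948 in WT. Its mean in WT, 0.957, was under the minimum of 1, so Sox17 entered the test through its KO values. Its log2 change was 0.095 (95% interval -0.094 to 0.28; limma adjusted p 0.60). The groups did not overlap in the deposited values, but they did when libraries were scaled by their totals.

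**Figure D1:**
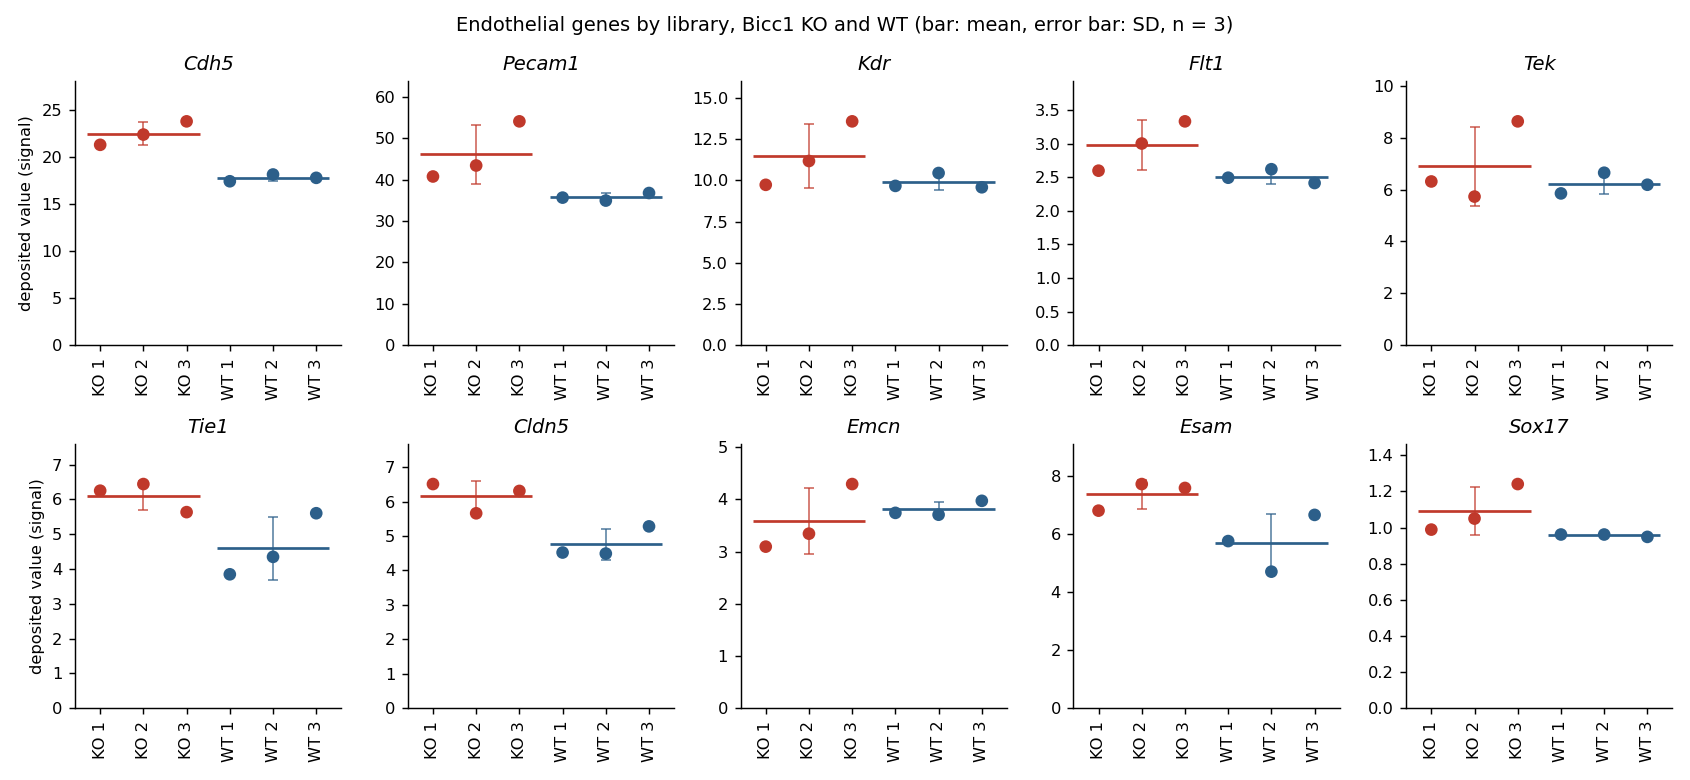
Deposited value (signal, axis from 0) of each of the 10 endothelial genes in the 3 KO libraries (red) and the 3 WT libraries (blue), with the group mean as a line and the SD (n = 3) as an error bar. KO 3 is the highest library in 7 of the 10 panels, and Emcn is the only gene whose KO mean lies below its WT mean.

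Over the 10 genes, 0 passed limma at an adjusted p of 0.05, where 2 of 13911 genes (0.0144%) did. An unadjusted p under 0.05 was reached by 5 members (Cdh5, Cldn5, Pecam1, Tie1 and Esam), all with a higher mean in KO, and by 5.89% of all tested genes in that direction. KO and WT did not overlap in 6 members (16.4% of all tested genes): every KO library exceeded every WT library in 6, against 7.67% of tested genes, and fell short of every WT library in 0, against 8.77%. The mean log2 value was higher in KO in 9 members, against 53.5% of all genes. The median log2 change of the members was 0.25, and that of all tested genes was 0.014. Without Sox17 the median over the other 9 was 0.31, with 8 higher means and 5 genes with groups apart. These counts describe genes that share a cell type and vary together, and they are not independent observations. In bulk tissue a change in the number of endothelial cells and a change in RNA per cell cannot be told apart.

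KO 3 held the highest value of 7 members, KO 2 of 2 and KO 1 of 1, and no WT library was highest for any. The lowest value fell in a WT library for 8 members. The excess of KO over WT was larger where KO 3 took part. The median log2 change of the members was 0.40 for KO 3 against WT 1 and WT 2 and 0.13 for KO 1 and KO 2 against WT 3. All 10 members were higher in KO 3 than in WT 1 and WT 2, and 8 were higher in KO 1 and KO 2 than in WT 3, the exceptions being Tek (-0.035) and Emcn (-0.24). Those 8 were higher on both sides, as were 39.4% of all genes tested. By mean log2 value, 7389 of the 13911 tested genes were higher in KO 3 than in WT 1 and WT 2. For KO 1 and KO 2 against WT 3 the number was 8187. The medians over all tested genes were 0.015 and 0.025.

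Members at the extremes of GC content differed in the size of the change, but the order in between was mixed. Pecam1 at 50.2% had a log2 change of 0.35, Flt1 at 50.5% had 0.18 and Sox17 at 52.6% had 0.095. The GC content of the longest annotated transcript ran from 40.7% in Emcn, the only gene with a lower mean in KO, to 57.6% in Tie1 and 60.5% in Cldn5, both among the 5 largest changes. After GC correction the log2 change of Cldn5 was 0.056 (95% interval -0.27 to 0.38), that of Tie1 was 0.15 and that of Sox17 was 0.0071. Cdh5, Pecam1 and Esam kept KO values above all WT values after the correction, with changes of 0.24, 0.31 and 0.22, and these were 3 of the 10 members against 4.62% of all genes with a GC value. Their adjusted p in limma was then 0.54, 0.55 and 0.58. All 10 members had a higher mean in KO after the correction, with a median of 0.14, while 47.1% of all genes did.

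**Figure D2:**
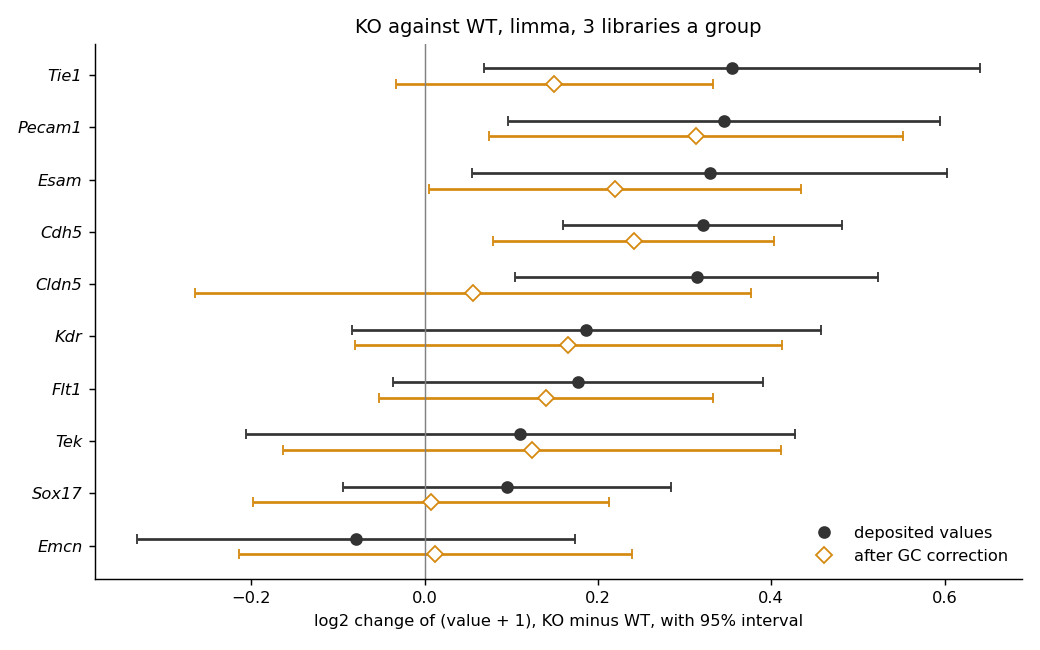
Log2 change of (value + 1), KO minus WT, for the 10 genes with its 95% interval from limma (3 libraries a group), from the deposited values (filled circles) and after GC correction (open diamonds). The intervals of Tie1, Pecam1, Esam, Cdh5 and Cldn5 lie above 0 from the deposited values, and those of Pecam1, Esam and Cdh5 do so after the correction.

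**Figure D3:**
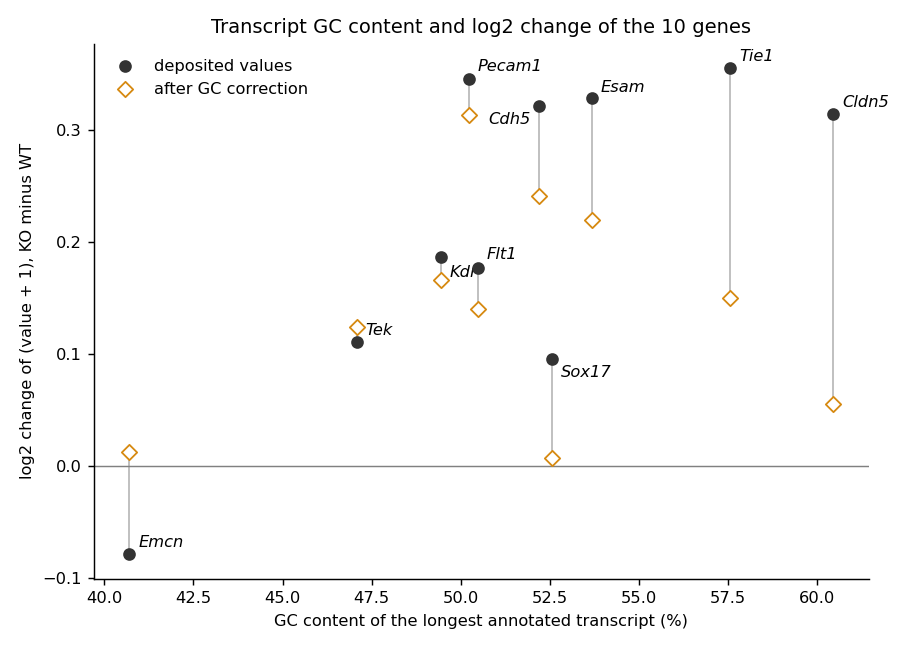
GC content of the longest annotated transcript (x axis, percent) and log2 change, KO minus WT (y axis), of the 10 genes, with a grey line from the value as deposited (circle) to the value after GC correction (diamond). Cldn5, at 60.5% GC, moves from 0.31 to 0.056, while Pecam1, at 50.2%, moves from 0.35 to 0.31.

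The base composition of these genes differs at their start sites too. RefSeq promoter windows (build GRCm38.p6) were matched for 6 of the 10 members by symbol: Kdr, Flt1, Tek, Tie1, Cldn5 and Emcn. The 250 bases before the start are shown for the Tie1 and Tek pair, which differed in pattern, and for Cldn5 and Emcn, the members with the highest and lowest transcript GC content. Capitals mark GGAA or its reverse complement TTCC, the core of the sites that ETS factors such as ERG and FLI1 bind. All are written 5′ to 3′ on the strand of the gene.
Tie1 (chr4:118489850-118490099, minus strand): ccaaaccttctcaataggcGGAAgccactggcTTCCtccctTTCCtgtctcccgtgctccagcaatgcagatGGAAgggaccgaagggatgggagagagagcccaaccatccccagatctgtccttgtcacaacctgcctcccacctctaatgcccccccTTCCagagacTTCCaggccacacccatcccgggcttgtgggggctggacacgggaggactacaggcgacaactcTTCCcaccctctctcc
Tek (chr4:94739039-94739288, plus strand): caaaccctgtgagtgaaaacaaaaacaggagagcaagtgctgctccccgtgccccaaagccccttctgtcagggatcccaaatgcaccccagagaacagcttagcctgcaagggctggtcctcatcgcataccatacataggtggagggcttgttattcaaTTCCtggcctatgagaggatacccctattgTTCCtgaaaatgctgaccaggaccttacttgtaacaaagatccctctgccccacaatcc
Cldn5 (chr16:18776597-18776846, plus strand): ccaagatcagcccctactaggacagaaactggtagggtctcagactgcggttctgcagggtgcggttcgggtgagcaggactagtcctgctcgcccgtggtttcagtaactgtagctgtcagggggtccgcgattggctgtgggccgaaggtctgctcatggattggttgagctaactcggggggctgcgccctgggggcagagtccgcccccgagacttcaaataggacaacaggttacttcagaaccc
Emcn (chr3:137340828-137341077, plus strand): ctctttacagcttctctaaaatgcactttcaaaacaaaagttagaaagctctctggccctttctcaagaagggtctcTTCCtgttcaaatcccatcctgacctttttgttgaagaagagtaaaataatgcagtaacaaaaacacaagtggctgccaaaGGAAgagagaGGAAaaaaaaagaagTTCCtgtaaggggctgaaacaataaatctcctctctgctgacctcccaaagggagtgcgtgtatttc
The Tie1 window held 7 matches, as many or more than which were found in 3.82% of all 32851 windows. Tek held 2, Emcn 4 and Cldn5 0, and Kdr and Flt1, not shown, held 4 each. At least 1 match stood in 93.4% of all windows, so the core is common, and a match is a description of letters and not of binding. GC content of these 250 bases was 60.4% in Tie1, 51.2% in Tek, 59.6% in Cldn5 and 40.8% in Emcn. It was 61.6% in Kdr and 70.4% in Flt1, the 2 highest of the 6, although their transcripts had 49.4% and 50.5%. Over the 6 windows it therefore did not simply follow the GC content of the transcript. The longer motif CAGGAAG (either strand, contains GGAA) stood in Emcn alone of the 6 and in 10.8% of all windows. Another form of the ETS site, CCGGAAG, which also contains GGAA, was in 6.91% of all windows. The GATA motif AGATAA was in 9.99% of them, the SOX motif ACAATG in 10.7% and the forkhead motif TGTTTAC in 3.17%, none of which overlaps GGAA. These 4 motifs, searched on both strands, had 0 matches in the 6 member windows.

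A ratio within a library is not affected by a factor common to both genes. Relative to Cdh5, Emcn was 0.146, 0.150 and 0.181 in KO and 0.215, 0.205 and 0.224 in WT. All KO ratios were below all WT ratios, and the KO mean was 74.0% of the WT mean. Sox17 relative to Cdh5 was 0.0465, 0.0470 and 0.0523 in KO and 0.0553, 0.0531 and 0.0534 in WT, again without overlap, at 90.1% of the WT mean. For the other 7 members the groups overlapped, with KO means between 87.1% (Tek) and 106% (Tie1) of the WT mean. Cdh5 was itself higher in every KO library, so a gene with no change gives a lower ratio to it in KO. The low ratios of Emcn and Sox17 therefore restate in part the rise of Cdh5. Such ratios were not computed over all tested genes. The ratios are given as descriptions, without a test.

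Relative to Pecam1, a comparison chosen after its values were seen, Emcn was 0.0759, 0.0770 and 0.0794 in KO and 0.105, 0.106 and 0.108 in WT. The 3 values of each group lay close together and far from the other group, and the KO mean was 72.8% of the WT mean. Pecam1, like Cdh5, was itself higher in every KO library, which lowers this ratio in KO. Emcn was apart between the groups in its ratio to 7 of the other 9 members, all except Tek and Tie1, where 11 of all 45 pairs of members were apart. After GC correction 3 of the 9 ratios of Emcn were apart, those to Cdh5, Pecam1 and Esam, where 10 of all 45 pairs were. Pecam1 was then apart in 5 of its 9 ratios, and Cdh5, Flt1 and Sox17 in 3 each, so the number for Emcn was no longer above those of other members. The log2 difference between Emcn and Pecam1 was -0.30 in KO relative to WT, against -0.42 before.

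**Figure D4:**
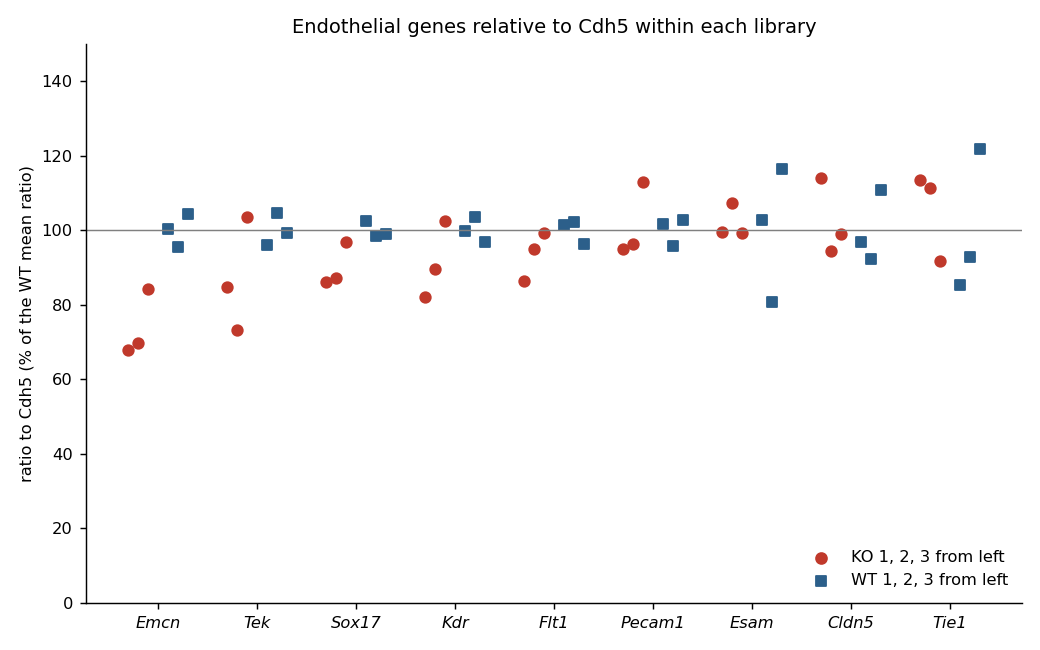
Ratio of each of 9 endothelial genes to Cdh5 within a library, as a percentage of the mean WT ratio (y axis, from 0), for KO 1, 2 and 3 (red circles, left to right) and WT 1, 2 and 3 (blue squares). The 3 KO ratios of Emcn and of Sox17 lie below all WT ratios, and those of the other 7 genes overlap.

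Ligands and coreceptors of the VEGF and angiopoietin pathways numbered 12, of which 10 were tested. At an adjusted p of 0.05 limma passed 0. The KO mean was the higher in 8 and the lower in 2, with a median log2 change of 0.10, where 53.5% of all genes were higher. After GC correction 6 of the 10 were higher, beside 47.1% of all genes, and the median was 0.014. Vegfa, the main ligand of Kdr, was 8.23, 13.9 and 11.6 in KO and 8.76, 8.28 and 8.70 in WT. KO 2 and KO 3 were high and KO 1 was the lowest of all 6, so the groups overlapped (log2 change 0.33, limma adjusted p 0.47). The change of Vegfa was 0.17 without KO 2 and 0.52 without KO 1. Vegfd, a ligand of VEGFR3 that in mice does not bind Kdr, was 1.495, 1.94 and 2.17 in KO and 3.46, 3.84 and 2.22 in WT. Every KO library fell below every WT library, by a small margin between KO 3 and WT 3, and the log2 change was -0.53 (SE 0.17; limma adjusted p 0.47).

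The other VEGF pathway genes stayed within the spread of the libraries. Vegfb and Pgf, ligands of Flt1, had log2 changes of 0.17 and 0.14 that turned to -0.11 and -0.040 after GC correction. Vegfc, the other ligand of VEGFR3, had a change of 0.021. Flt4, which encodes VEGFR3, had 0.099, and the coreceptor genes Nrp1 and Nrp2 had -0.077 and 0.077. The GC correction turned Flt4 to -0.083 and Nrp1 to 0.0025. Angpt1, the activating ligand of Tek, was 2.09, 1.39 and 2.17 in KO and 1.72, 2.05 and 1.28 in WT, with a change of 0.10. Ptprb, a phosphatase that acts on Tek and VE-cadherin, had 0.17. Angpt2, a ligand of Tek that can block it, lay between 0.480 and 0.702 in all 6 libraries and Angptl1, a related secreted protein gene, between 0.258 and 0.575, both under the minimum for testing.

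Of 28 further endothelial genes, called the surface list although some products, such as that of Apln, are secreted, 25 were tested. At an adjusted p of 0.05 limma passed 0. The KO mean was higher in 23, every KO library exceeded every WT library in 12, and the reverse held in 0, beside shares over all tested genes of 53.5%, 7.67% and 8.77%. The median log2 change was 0.24. Apln, the apelin ligand made by sprouting tip cells, was 6.21, 7.40 and 7.95 in KO and 4.80, 4.25 and 4.62 in WT, a clear gap between the groups. Its log2 change was 0.55 (SE 0.10) before and 0.48 after GC correction, with adjusted p of 0.47 and 0.38 in limma. Its receptor gene Aplnr had a change of 0.032. The adhesion gene Icam2, with a change of 0.50, Plvap, a gene of fenestrated endothelium (0.35), and Clec14a, an endothelial lectin gene (0.28), also had no overlap between the groups. After GC correction these 3 changes were 0.39, 0.093 and 0.34, and the groups of Plvap overlapped. Over the surface list the corrected median was 0.15, with 20 higher means and 10 genes whose KO libraries all exceeded WT. The shares over all genes were then 47.1% and 4.62%.

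Endothelial transcription factor genes followed less evenly. Of 19, 14 were tested and limma passed 0 at an adjusted p of 0.05. The KO mean was higher in 10, beside 53.5% of all genes, and the median log2 change was 0.087 (0.050 after GC correction). Every KO library exceeded every WT library in 2, beside 7.67% of all genes, and the reverse held in 1, beside 8.77%. The SOXF genes Sox18 and Sox7, relatives of Sox17, were higher in every KO library than in any WT library. Sox18 was 3.63, 4.40 and 3.74 in KO and 2.48, 1.996 and 3.52 in WT, with a log2 change of 0.44 that was 0.18 after GC correction. Sox7 had a change of 0.17, with groups that overlapped after the correction (0.12). Erg, an ETS factor that maintains endothelial identity, had 0.17 with overlapping groups. Klf2, a factor induced by blood flow, was lower in every KO library than in any WT library, at 1.26, 0.969 and 1.41 against 1.43, 1.59 and 1.47, with a change of -0.18. Without KO 2 this was -0.099, and after GC correction it was -0.45 with overlapping groups.

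Junction partner genes, most of them shared with epithelium, were spread around 0 as a list. In 6 of 14 the KO mean was higher, beside 53.5% of all genes. The median log2 change was -0.011, and limma passed 0 at an adjusted p of 0.05. Every KO library lay above every WT library in 1 gene and below every WT library in 1, beside 7.67% and 8.77% of all genes. Cldn12, a claudin gene, was 41.9, 43.6 and 45.2 in KO and 57.3, 54.0 and 47.8 in WT, with no overlap and a change of -0.27. F11r, the gene of the junction protein JAM-A, had a change of -0.14 with overlapping groups. Jup went the other way, with a change of 0.27 and overlapping groups, and was at 0.037 after GC correction.

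Arterial, venous and lymphatic genes were read by vessel type. Of 9 tested arterial genes 7 averaged higher in KO, beside 53.5% of all genes. Every KO library exceeded every WT library in 2, beside 7.67% of all genes. The groups of the gap junction gene Gja5 did not overlap (log2 change 0.43), while Gja4 (0.46) and the Notch ligand gene Dll4 (0.27) had overlapping groups. After GC correction 0 of the arterial genes had groups apart, where 4.62% of all genes had every KO library above WT. The changes were then 0.33 in Gja5, 0.23 in Gja4 and 0.10 in Dll4. Unc5b, a netrin receptor gene, was apart with a change of 0.21 that turned to -0.025 with the correction. All 4 venous genes had a higher mean, as did 53.5% of all genes, with Ephb4, the receptor of arterial ephrin B2, apart at 0.21 and Nrp2 at 0.077. After GC correction 2 of the 4 were higher, beside 47.1% of all genes, with a median of 0.0076. Ephb4 (-0.015) and Aplnr (-0.010) had turned. Of 4 tested lymphatic genes 3 averaged lower in KO, beside 6463 of all 13911 tested genes. Lyve1, a hyaluronan receptor gene of lymphatic endothelium and of some macrophages, was 7.62, 7.68 and 8.33 in KO and 10.8, 12.6 and 8.92 in WT, without overlap and with a change of -0.40 (SE 0.12). Prox1, which is also a gene of the pancreatic epithelium, had -0.19 with overlapping groups. Of these arterial, venous and lymphatic genes 0 passed at an adjusted p of 0.05 in limma. Gja5, Gja4, Unc5b and Ephb4 were higher in KO at an unadjusted limma p under 0.05, beside 5.89% of all genes. Lyve1 was lower at that p, beside 4.36% of all genes.

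**Figure D5:**
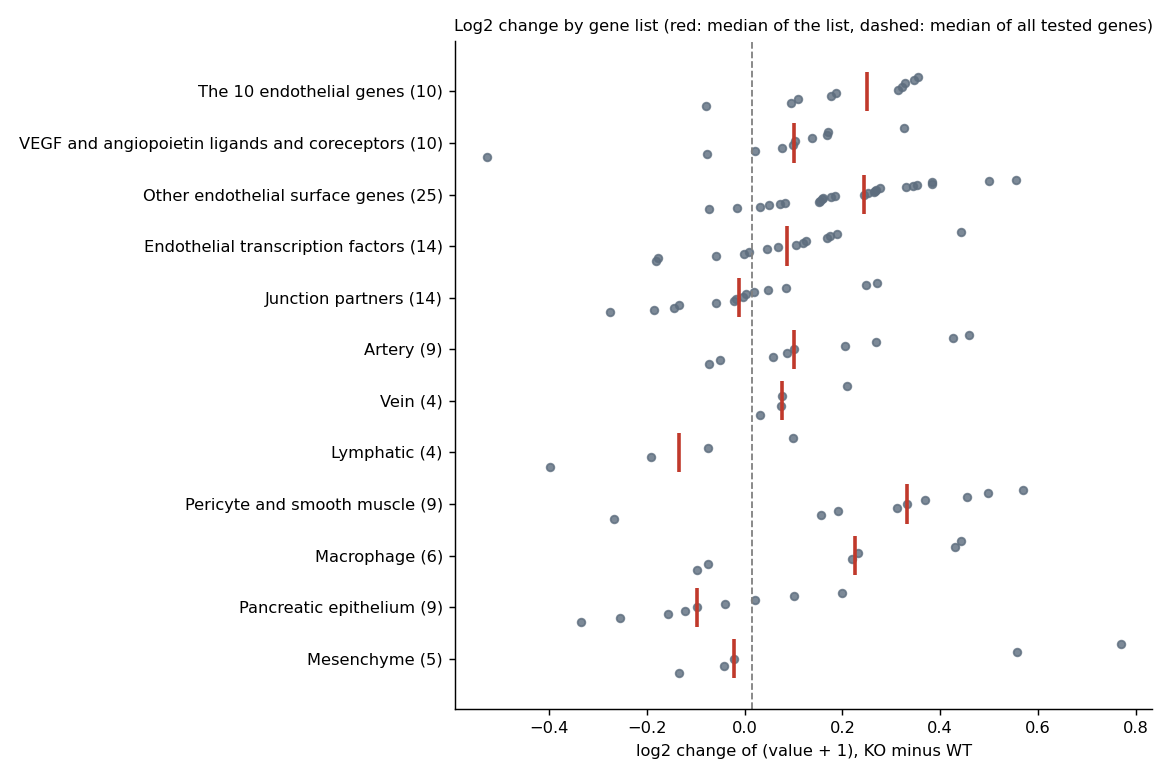
Log2 change of (value + 1), KO minus WT (x axis), of every tested gene in each gene list, with the number tested in brackets, the list median as a red line and the median of all tested genes (0.014) as a dashed line. The median is 0.25 for the 10 endothelial genes, 0.24 for further endothelial surface genes, 0.33 for pericyte and smooth muscle genes and -0.011 for junction partners.

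Lists of other cells in the tissue were read beside the endothelial genes. Of 9 tested genes of pericytes and smooth muscle, cells that wrap vessels, 8 averaged higher in KO and 4 had every KO library above WT. The shares over all genes were 53.5% and 7.67%. The median log2 change was 0.33, and limma passed 0 at an adjusted p of 0.05. After GC correction the median was 0.13 and 2 genes were apart in that direction, beside 4.62% of all genes. Kcnj8 and Abcc9, which form the potassium channel of pericytes, had changes of 0.57 and 0.46, Notch3 had 0.37 and Pdgfrb, the receptor through which endothelium recruits pericytes, 0.31. With the correction Kcnj8 was 0.47, Abcc9 0.49, Notch3 0.12 and Pdgfrb 0.17, and of these 4 Abcc9 alone was still apart. Rgs5, a standard pericyte marker gene, was at 82.4% of the WT mean (log2 change -0.27) with overlapping groups. The summed value of the pericyte list was 115.5 to 135.5 in KO and 100.4 to 110.2 in WT. That of the 10 endothelial genes was 104.3 to 128.4 in KO and 89.9 to 95.2 in WT. Sums of this kind, here and below, mostly follow the genes with the largest values. Pecam1 alone was 40.8 to 54.1 in KO and 34.9 to 36.8 in WT. Of 6 tested macrophage genes 4 had a higher mean, beside 53.5% of all genes. Tyrobp (0.44, or 0.31 with the correction) and Cd68 (0.43, or 0.33) were among these 4. Mrc1 (-0.074) and Aif1 (-0.096) had a lower mean in KO. The macrophage list summed to 26.4 to 33.0 in KO and 23.8 to 28.1 in WT.

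Pecam1 and Esam are also made by megakaryocytes and platelets, and markers of those cells were low. Of 8 such genes 1, Pf4, reached the minimum for testing, with 4.91, 4.85 and 4.14 in KO and 3.31, 3.82 and 5.27 in WT, and overlapping groups. Itga2b, the defining integrin gene of that lineage, lay between 0.110 and 0.179, and the platelet receptor gene Gp9 between the floor of 0.01 and 0.104. The list summed to 6.38 to 6.47 in KO, within the 5.20 to 7.67 of WT, and Pf4 made up most of each sum. Erythroid genes overlapped likewise, with Alas2 at 5.63 to 9.001 in KO and 4.99 to 8.04 in WT and a list sum of 7.88 to 12.0 against 7.10 to 11.7. In the 9 genes of the pancreatic epithelium 6 averaged lower in KO, beside 6463 of all 13911 tested genes. Their median was -0.096, with sums of 338.3 to 505.9 in KO and 409.7 to 467.1 in WT. All 9 were lower in KO 3 than in WT 1 and WT 2, with a median of -0.33, the comparison in which the endothelial median was 0.40. In that comparison 7389 of all 13911 tested genes were higher, with a median of 0.015. The endothelial genes were not alone in it: the median was 0.44 for pericyte, 0.38 for macrophage and 0.44 for mesothelium genes. It was 0.10 for mesenchyme and -0.016 for erythroid genes. For KO 1 and KO 2 against WT 3 the epithelial median was 0.017. After GC correction over all libraries it was -0.19, with 1 of 9 genes higher, beside 47.1% of all genes.

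Mesenchyme genes were uneven. Of 5 tested, 2 averaged higher in KO, beside 53.5% of all genes. The median log2 change was -0.021, and limma passed 0 at an adjusted p of 0.05. Barx1, a factor gene of stomach mesenchyme, was 5.04, 3.14 and 2.90 in KO and 1.44, 1.179 and 2.70 in WT. Its groups did not overlap, and its log2 change of 0.77 was 0.48 after GC correction, where they did. Tcf21, a factor gene of visceral mesenchyme including that of the spleen, was 27.4, 17.1 and 31.0 in KO and 15.5, 17.9 and 15.5 in WT, with KO 2 inside the WT range and a log2 change of 0.56. Nkx2-5, a factor gene of spleen and pyloric mesenchyme, was under the minimum for testing. It was 0.408, 0.315 and 0.770 in KO and 0.0313, 0.0501 and 0.131 in WT, without overlap. The general mesenchyme genes Pdgfra and Col1a1 had changes of -0.13 and -0.041. The list summed to 268.4 to 315.5 in KO and 285.3 to 288.9 in WT. Mesothelium genes had a median of 0.034 over 2 tested. The part of all these other cells in the endothelial values was not tested.

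The genes outside the endothelial lists whose pattern over the 6 libraries was most like the mean standardised level of the 10 genes were Kif21b (Pearson's r 0.997), Rpain (0.995), Actc1 (0.987), Rab11fip5 (0.987) and Kirrel (0.984). Of 13298 genes compared, 155 reached an r of 0.9. Kif21b, a kinesin gene, was 5.67, 5.97 and 7.65 in KO and 4.60, 4.89 and 5.14 in WT. These 5 genes were highest in KO 3, which follows from picking them by likeness to a pattern that is highest there.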

How the data were processed

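The authors deposited 1 file per library with a non-negative signal per Ensembl gene, 24389 in each, with a floor of 0.01. The submitters' processing notes list CASAVA 1.82, Bowtie 0.12.7 and mm9. How genes were annotated, counted and normalized is not given in the sources used here. RNA came from a column kit and libraries from a TruSeq RNA v2 kit, per the labels' protocols. Symbols were found for 22624 identifiers (92.8%) in tables of build GRCm38, used for names, GC content and promoter sequence only. Genes with a mean of at least 1 (13911) entered a moderated two-sided test of KO against WT in limma 3.58.1 (R 4.3.3), on log2(value + 1) with a mean-variance trend and Benjamini-Hochberg adjustment at 0.05. This scale understates changes of low genes. GC correction was a loess fit (span 0.3) of each library's deviations over the 13385 tested genes with a GC value (96.2%). The code was tested on simulated data. The members and the lists were chosen with earlier results of these data known. The genes named are Bicc1, the 10 members, the VEGF and angiopoietin list, up to 4 genes of lowest p from each other list, and the 5 genes of most similar pattern. Itga2b, Gp9, Pdx1, Rgs5 and Nkx2-5 are named outside that rule, and 1 marker list is not reported here. Python 3.11.15, pandas 2.3.3 and matplotlib 3.10.9 made the tables and figures.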

Additional observations from a re-analysis of the deposited data

How the results depend on the processing

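Each result was recomputed in 17 alternative fits: 3 scalings, a pseudocount of 0.1, 2 other filters, robust moderation, the replicate block, GC correction with and without that block, the side of the first component, and each library left out. In every one 0 of the 10 members passed limma at an adjusted p of 0.05, with adjusted p between 0.132 and 0.992, and 0 passed at a threshold of 0.10. GC correction took the members' median log2 change from 0.25 to 0.14 (0.14 with the block as well) and the number of members with groups apart from 6 to 3. The number of all genes past the threshold, 2, became 1 with no filter, 4 after GC correction, 1 after GC correction with the block, and 1 to 8 with a library left out. Same-numbered libraries did not vary together (r of their deviations -0.216, -0.398 and -0.638 across genes), so the replicate block pairs numbers only. With it 0 genes passed, and Bicc1 (log2 change -1.89) had an adjusted p of 0.088. Without single libraries the members' median ran from 0.22 to 0.28, the number with a higher mean from 7 to 9 and the number apart from 6 to 8. Without KO 3 these were 7 and 6 of 9 tested members, and Emcn was among those apart, with KO below WT. Smaller groups are apart more easily. The shares over all genes were not computed for these fits, so the numbers apart cannot be set beside the 6 of the main fit.

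Of 168 values of single members under the alternatives, 3 changed sign. These were Emcn at 0.012 after GC correction, with or without the block, and Tek at -0.042 without KO 3, in a range from -0.042 to 0.22. Of 918 values of other named genes 29 changed sign. After GC correction, with or without the block, these were Vegfb (-0.11), Pgf (-0.040), Nrp1 (0.0025), Flt4 (-0.083), Unc5b (-0.025), Ephb4 (-0.015) and Aplnr (-0.010). With scaling by upper quartiles Vegfc was -0.0050 and Aplnr -0.0045. With single libraries left out Vegfc ran from -0.072 to 0.10, Angpt1 from -0.0075 to 0.23, Aplnr from -0.073 to 0.12, Nr2f2 from -0.088 to 0.25, Slc4a1 from -0.15 to 0.066, Cdh1 from -0.27 to 0.012, Col1a1 from -0.10 to 0.016, Upk3b from -0.20 to 0.026 and Wt1 from -0.15 to 0.43. Sox17 was not tested with a value of at least 1 in 3 libraries or without KO 3. The cause of these shifts was not tested. Depth is unknown, so no counting error can be given for low values such as those of Sox17.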
